A study of Mus musculus with 45 samples.

Results

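Trem2, its adaptor Tyrobp and 5 signalling proteins downstream of them (Syk, Plcg2, Vav1, Inpp5d and Ptpn6) were followed in the hippocampus of 45 female mice. The 7 genes were chosen by symbol as the receptor complex and its best-known partners, with earlier results of these data known. All 7 were found among the 15897 genes of the deposited table. The mice were on a C57Bl/6J background and belonged to 4 genotypes: wild-type (AwTw), Tau P301L transgenic (AwT+), APP/PS1 transgenic (A+Tw) and transgenic for both (A+T+). Per the study's methods, APPswe and PS1dE9 were carried in a single transgene under the mouse PrP promoter and Tau P301L under the CaMKII promoter. From the age of 7 months until sacrifice at 13 months the mice received either a typical Western diet (TWD, 21% w/w fat and 0.15% cholesterol) or standard rodent diet (STD, 5% fat and no cholesterol). Of the 8 groups, named by genotype and diet, 6 held 6 mice each, while A+Tw/STD held 5 and A+T+/STD held 4. The labels place 20 mice in batch 0 and 25 in batch 1 without saying what the batches are, and A+Tw/STD had 1 mouse in batch 0.

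Trem2 is a surface receptor of microglia, the resident macrophages of the brain, and binds lipids, lipoproteins and β-amyloid. It has no signalling tail of its own and pairs in the membrane with Tyrobp (also called Dap12), whose ITAM motif is phosphorylated by Src family kinases and then recruits the kinase Syk. Syk activates phospholipase C gamma 2 (Plcg2), the Rac exchange factor Vav1 and PI3K, while the lipid phosphatase Inpp5d (Ship1) and the tyrosine phosphatase Ptpn6 (Shp1) counteract the signal. Rare variants of TREM2 and common variants near INPP5D are known to change the risk of Alzheimer's disease.

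The deposited values are variance-stabilised and on a log2-like scale, with batch already subtracted, so a difference of 1 corresponds to a 2-fold change for well-expressed genes and to more for weakly expressed ones. Batch was subtracted without regard to the groups, which the batches hold in unequal numbers. Values of mice from different batches are therefore not fully comparable, which also touches pooled ranges and the order of group means. Read depth per mouse is not given in the table, and the precision of each value rests on the spread between mice. Over all mice the mean value was 8.34 for Trem2, 9.10 for Tyrobp, 7.01 for Syk, 7.32 for Plcg2, 6.84 for Vav1, 8.09 for Inpp5d and 7.41 for Ptpn6, which puts the members between the 27.1st percentile of all genes for Vav1 and the 66.7th for Tyrobp. To compare levels between genes, log2 of the mean annotated transcript length in kb was subtracted. On this per-length log2 scale Tyrobp was highest at 9.89, followed by Trem2 at 8.24, Ptpn6 at 7.16, Inpp5d at 6.41, Vav1 at 5.33, Plcg2 at 5.22 and Syk at 4.89. The receptor and its adaptor have short transcripts (1072 and 580 bases on average), whereas those of Syk and Plcg2 average 4335 and 4298 bases. One further Ensembl identifier without a symbol repeats the values of Trem2 exactly and was not counted as a member.

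To show the control sequence of the genes, the 250 bases before each start listed by RefSeq were read from its promoter table (GRCm38.p6), which matched 6 of the 7 members, Syk with 2 promoters. They were searched on both strands for GAGGAA and GGAAGT, the overlapping core letters of sites for PU.1, the transcription factor that directs macrophage and microglial gene expression. Trem2 held 1 GAGGAA, on the opposite strand with its first base 40 bases before the start. Vav1 and Inpp5d both held the joined motif GAGGAAGT on the gene's strand, with its first base 11 and 20 bases before the start. Ptpn6 held 2 GGAAGT, and of the 2 promoters of Syk the second held GAGGAA. Both windows of Syk lie inside the gene as annotated, and the second (13:52596632-52596881) is far downstream of its annotated start. Of all 32851 promoters in the table, 23.3% held GAGGAA, 19.7% held GGAAGT and 2.44% held GAGGAAGT in the same 250 bases, against 4, 3 and 2 of the 7 promoters of the members. The sequences that carry these motifs for the receptor, Vav1 and Inpp5d are shown 5′ to 3′ on the gene's strand, with motif letters in capitals (TTCCTC is GAGGAA read on the opposite strand).
Trem2, chr17:48346151-48346400, plus strand: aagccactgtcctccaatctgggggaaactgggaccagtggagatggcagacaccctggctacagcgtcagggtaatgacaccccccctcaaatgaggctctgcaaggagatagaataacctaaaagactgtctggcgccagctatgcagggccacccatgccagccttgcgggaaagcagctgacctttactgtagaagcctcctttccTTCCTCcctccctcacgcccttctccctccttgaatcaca
Vav1, chr17:57278850-57279099, plus strand: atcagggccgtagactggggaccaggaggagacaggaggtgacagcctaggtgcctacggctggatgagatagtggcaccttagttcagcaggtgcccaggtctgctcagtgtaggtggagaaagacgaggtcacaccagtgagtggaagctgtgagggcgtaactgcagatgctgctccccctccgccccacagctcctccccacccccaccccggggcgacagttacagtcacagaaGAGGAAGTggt
Inpp5d, chr1:87620062-87620311, plus strand: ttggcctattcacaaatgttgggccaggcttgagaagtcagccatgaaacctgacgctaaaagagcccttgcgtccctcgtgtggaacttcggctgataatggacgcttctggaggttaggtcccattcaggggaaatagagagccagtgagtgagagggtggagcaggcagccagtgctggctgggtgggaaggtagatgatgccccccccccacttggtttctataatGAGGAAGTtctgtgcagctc
A match of letters is a description of these windows and was not tested as a binding site.

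Every member was higher in A+ than in Aw mice. The receptor and adaptor rose most, 3.54-fold for Trem2 and 3.30-fold for Tyrobp, whereas the kinase Syk rose 1.19-fold, and the effectors and phosphatases lay between them. This comparison averaged over both Tau genotypes and both diets, with batch as a covariate (limma, 2-sided, adjusted by Benjamini-Hochberg over all genes). All 7 members passed an adjusted p of 0.05 upwards, whereas 3.11% of all genes did so upwards, 0.661% downwards and 3.77% in either direction. As the members were chosen with earlier results of these data known, this count describes them and is no test of the set. Within batch 0 alone 4 of 7 passed (1.16% of all genes in either direction), and within batch 1 alone 5 of 7 did (1.81%). The median log2 difference was 0.60 over the members and -0.02 over all genes. In bulk hippocampus a higher number of microglia and more RNA per cell cannot be told apart.

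**Figure D1:**
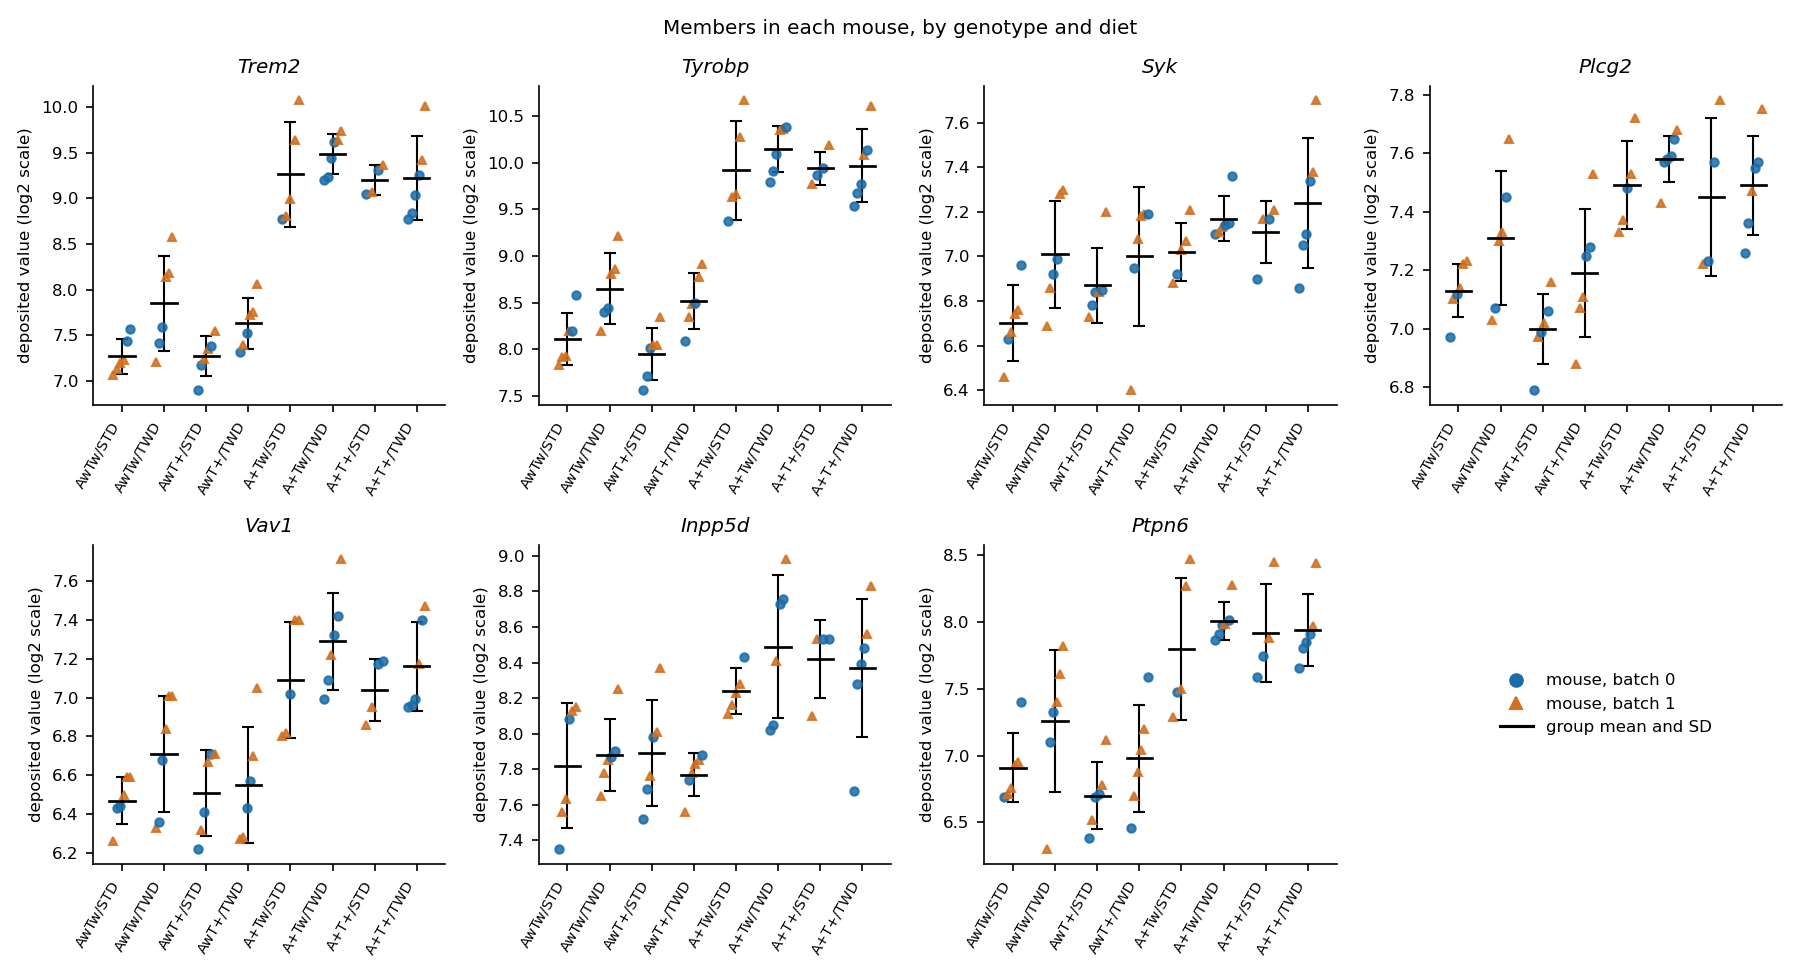
Deposited values (log2 scale, y axis) of the 7 genes in each of the 45 mice, by genotype and diet (x axis), with circles for batch 0, triangles for batch 1, and black bars for the group mean and SD. Trem2 and Tyrobp separate all 21 A+ mice from all 24 Aw mice, whereas the values of the other genes overlap.

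Trem2 (17:48346401-48354147, plus strand, GRCm38), the receptor, had group means close to each other within each APP/PS1 genotype. In the lowest group, AwT+/STD, values ran from 6.90 to 7.55 with a median of 7.30. AwTw/STD mice ran from 7.07 to 7.57 (median 7.21), AwT+/TWD from 7.32 to 8.06 (median 7.62) and AwTw/TWD from 7.21 to 8.58 (median 7.86). The 4 A+T+/STD mice had 9.36, 9.31, 9.05 and 9.07, and the 5 A+Tw/STD mice 8.81, 10.07, 8.99, 8.77 and 9.64. No A+ mouse of either diet fell into the range of the Aw mice. On TWD the A+Tw mice ran from 9.20 to 9.74 (median 9.53) and the A+T+ mice from 8.77 to 10.01 (median 9.15). The widest step in the order of the 8 group means lay between AwTw/TWD and A+T+/STD, at 1.35, against an SD of at most 0.52 in these groups. Among the 4 A+ groups the means went from 9.20 ± 0.16 to 9.48 ± 0.22 (SD), and no step between neighbours exceeded their SD. Within the Aw groups the step from AwTw/STD (7.27 ± 0.19, SD, n = 6) to AwT+/TWD (7.63 ± 0.28, SD, n = 6) did, by 0.35 against 0.28.

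The log2 difference of Trem2 between A+ and Aw was 1.82 ± 0.099 (SE, 21 against 24 mice, limma adjusted p = 4.29e-18). It was 1.68 ± 0.097 (SE) within batch 0 and 1.93 ± 0.155 within batch 1. The lowest A+ mouse (8.77) lay 0.19 above the highest Aw mouse (8.58), a separation shown by 0.17% of all genes, and on STD alone the gap was 1.20. Within batch 0 the gap was 1.18 and within batch 1 it was 0.23, where 0.648% and 0.346% of all genes separated upwards. In batch 0 Aw means were between 7.15 and 7.51 and A+ means between 8.77 and 9.37, and in batch 1 they were between 7.16 and 8.03 and between 9.22 and 9.72.

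Tyrobp (7:30413760-30417585, plus strand), the adaptor that carries the signal of Trem2, followed the receptor mouse by mouse. AwT+/STD mice ran from 7.56 to 8.35 (median 8.03), AwTw/STD from 7.83 to 8.58 (median 8.06), AwT+/TWD from 8.09 to 8.91 (median 8.50) and AwTw/TWD from 8.19 to 9.22 (median 8.62). The 5 A+Tw/STD mice had 9.63, 10.67, 9.67, 9.38 and 10.28, and the 4 A+T+/STD mice 10.19, 9.94, 9.87 and 9.77. On TWD, values ran from 9.80 to 10.39 in A+Tw (median 10.23) and from 9.54 to 10.61 in A+T+ (median 9.92). Again every A+ mouse was above every Aw mouse, with a gap of 0.16 over all mice, 0.80 within batch 0 and 0.40 within batch 1. The log2 difference between A+ and Aw was 1.72 ± 0.093 (SE, limma adjusted p = 3.7e-18), with 1.56 in batch 0 and 1.80 in batch 1. Trem2 rose by slightly more than Tyrobp on the log2 scale, with a difference between their responses of 0.10 (95% interval 0.02 to 0.18 over 45 mice, from a linear model of the value of Trem2 minus that of Tyrobp).

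**Figure D2:**
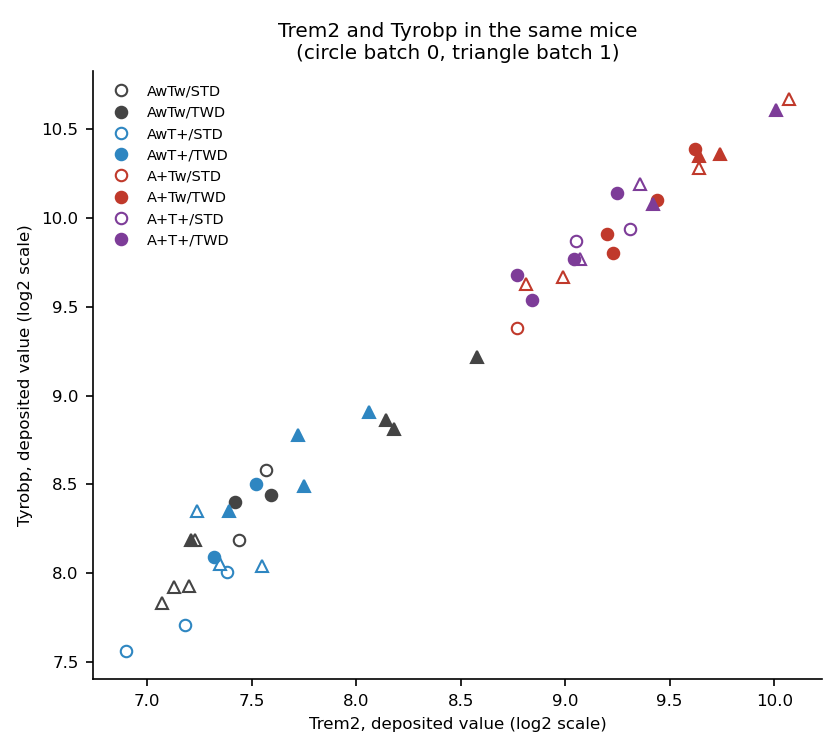
Deposited values of Trem2 (x axis) and Tyrobp (y axis) in the same 45 mice (log2 scale), with colours for genotype, filled symbols for TWD and open symbols for STD. Aw and A+ mice form separate clusters, and within both clusters the 2 genes rise together.

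Syk (13:52583173-52648792, plus strand), the kinase recruited by phosphorylated Tyrobp, had the smallest difference. Its values ran from 6.40 to 7.30 in Aw mice and from 6.86 to 7.70 in A+ mice, and the ranges overlapped in every pairing of A+ and Aw groups compared. The group means formed a shallow series from 6.70 ± 0.17 (SD) in AwTw/STD to 7.24 ± 0.29 in A+T+/TWD, in which only the first step, to AwT+/STD at 6.87 ± 0.17, exceeded the SD of its neighbours. The log2 difference of Syk between A+ and Aw was 0.25 ± 0.066 (SE, limma adjusted p = 0.0194). Within the batches it was 0.15 (adjusted p = 0.693) and 0.33 (adjusted p = 0.149) in batch 0 and batch 1, and neither passed the threshold.

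Among the effectors, Plcg2 (8:117498291-117635142, plus strand), which cleaves PIP2 to raise calcium and diacylglycerol, rose modestly. It ran from 6.79 to 7.65 in Aw mice and from 7.22 to 7.78 in A+ mice, so the ranges overlapped over most of the A+ values. Its log2 difference was 0.36 ± 0.057 (SE, limma adjusted p = 1.89e-05), and it was as large in batch 0 (0.35) as in batch 1 (0.36), although neither batch alone passed (adjusted p = 0.0572 and 0.0524). Vav1 (17:57279100-57328031, plus strand), which loads Rac GTPases for cytoskeletal change, ran from 6.22 to 7.05 in Aw and from 6.80 to 7.71 in A+ mice. On STD the Aw mice ended at 6.71 and the A+ mice began at 6.80, and in batch 0 the A+ and Aw mice did not overlap either, with a gap of 0.25. No overlap upwards was found in 0.686% of all genes on STD and in 0.648% in batch 0. The log2 difference of Vav1 was 0.60 ± 0.074 (SE, limma adjusted p = 8.73e-08), with 0.65 in batch 0 and 0.59 in batch 1, both past the threshold.

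Of the inhibitory phosphatases, Ptpn6 rose more than Inpp5d. Ptpn6 (6:124720707-124738714, minus strand) removes phosphate from ITAM-coupled proteins and ran from 6.30 to 7.82 in Aw and from 7.29 to 8.47 in A+ mice. Its log2 difference was 0.98 ± 0.106 (SE, limma adjusted p = 3.79e-09), with 0.76 in batch 0 and 1.12 in batch 1. Inpp5d (1:87620312-87720507, plus strand) turns the PI3K product PIP3 into PI(3,4)P2 and ran from 7.35 to 8.37 in Aw and from 7.68 to 8.98 in A+ mice. Its log2 difference was 0.56 ± 0.085 (SE, limma adjusted p = 8.39e-06), with 0.61 in batch 0 (adjusted p = 0.0651) and 0.59 in batch 1 (adjusted p = 0.00231). The response of Inpp5d was smaller than that of Ptpn6 by 0.42 on the log2 scale (difference -0.42, 95% interval -0.72 to -0.12). Between Vav1 and Inpp5d the responses differed by 0.04 (95% interval -0.20 to 0.29), and between Syk and Plcg2 by -0.11 (-0.25 to 0.04). Trem2 rose by 0.85 more than Ptpn6 (0.68 to 1.01), by 1.22 more than Vav1 (1.06 to 1.38) and by 1.58 more than Syk (1.37 to 1.78).

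**Figure D3:**
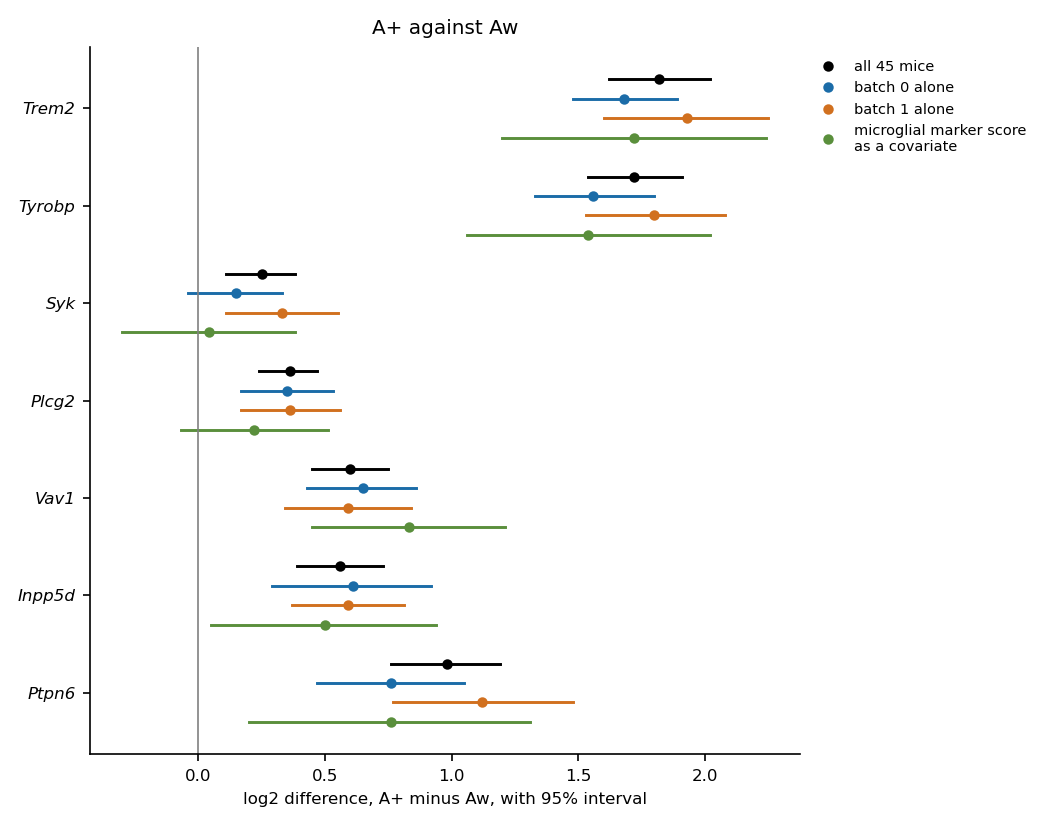
Log2 difference between A+ and Aw mice (x axis, with 95% interval) for each gene, over all 45 mice, within each batch, and with the microglial marker score as a covariate. Trem2 and Tyrobp lie between 1.54 and 1.93 in all 4 fits, and Syk, at 0.04 to 0.33, is the lowest of the 7 in each of them.

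The rise was measured against markers of microglia and other cells. Of 12 microglial markers, 8 were higher in A+ mice (median log2 difference 0.53, against -0.02 for all genes), and their mean value ran from 8.36 to 8.75 in Aw and from 8.84 to 9.34 in A+ mice. Of 14 genes of microglia near plaques, 13 were higher (median 0.92), with means from 6.81 to 7.44 in Aw and from 8.01 to 8.58 in A+ mice. None of the 4 perivascular macrophage markers passed (median 0.11), and of 9 blood leukocyte markers 1 was in the table, at 0.00, so that a part of blood cells in the result was not tested. None of the 6 neuron, 6 oligodendrocyte, 5 endothelial and 6 choroid plexus markers passed, while 1 of 6 astrocyte markers, Gfap, did. Median differences of these lists were -0.09, 0.12, -0.03 and 0.87, and -0.04 for astrocytes. The choroid plexus markers varied most between mice, with means from 6.92 to 12.07.

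When the mean of the standardised microglial markers was added as a covariate, 3 of the 7 members passed, where 7.44% of all genes did in either direction. The log2 difference was 1.72 ± 0.257 (SE) for Trem2, 1.54 ± 0.239 for Tyrobp and 0.83 ± 0.189 for Vav1 (limma adjusted p = 6.03e-05, 0.000116 and 0.00832). Ptpn6 (0.76, adjusted p = 0.0764), Inpp5d (0.50, adjusted p = 0.148), Plcg2 (0.22, adjusted p = 0.332) and Syk (0.04, adjusted p = 0.906) did not. The score itself separated the genotypes (lowest A+ mouse -0.089, highest Aw mouse -0.213), which widened the errors. The intervals for Ptpn6 and Inpp5d began at 0.20 and 0.05. With group and batch means taken out, the score followed the members weakly, from r = -0.22 for Vav1 to 0.23 for Syk (Trem2 0.07, Tyrobp 0.14). The fit therefore could not test whether the members rose beyond the number of microglia.

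The single comparisons tested whether the rise was found in each Tau genotype and diet. Against AwTw on STD, 4 members were higher in A+Tw mice, namely Trem2 (log2 difference 1.95), Tyrobp (1.78), Ptpn6 (0.87) and Vav1 (0.60), where 0.918% of all genes were called upwards and 0.925% in either direction. The same 4 were higher in A+T+ mice (1.98, 1.88, 1.04 and 0.59), where 1.22% of genes were called upwards, 0.101% downwards and 1.32% in either direction. Both comparisons used the same AwTw/STD mice. On TWD, 5 members were higher in A+Tw than in AwTw mice (0.818% of all genes, and 0.824% in either direction), as Inpp5d (0.65, limma adjusted p = 0.0395) joined Trem2 (1.72), Tyrobp (1.59), Ptpn6 (0.81) and Vav1 (0.63). In A+T+/TWD against the same AwTw/TWD mice 2 members passed, Trem2 (1.47) and Tyrobp (1.41), where 0.692% of genes did upwards, 0.0377% downwards and 0.73% in either direction, and Ptpn6 was at 0.74 with an adjusted p of 0.0939.

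Against mice that carried Tau alone, A+T+ mice had 3 members called on STD and 5 on TWD, where 0.918% and 0.736% of all genes were called upwards, 0.0315% and 0.0252% downwards, and 0.95% and 0.761% in either direction. Trem2 differed by 1.93 and 1.70, Tyrobp by 1.99 and 1.54 and Ptpn6 by 1.22 and 1.02 on the log2 scale, and Vav1 (0.65) and Inpp5d (0.64) passed on TWD only. These 2 genes were at 0.53 each on STD, where 4 A+T+ mice were compared. Plcg2 and Syk passed in none of the 6 comparisons, with log2 differences of 0.21 to 0.45 and 0.18 to 0.42. Whether the APP/PS1 difference itself depended on diet was tested by the interaction, in which 0 of 7 members passed (limma, 0% of all genes called, and 0 members at an unadjusted p under 0.05). The interaction was -0.23 for Trem2 (95% interval -0.64 to 0.17), -0.32 for Tyrobp (-0.70 to 0.06) and 0.17 for Inpp5d (-0.17 to 0.52). The interaction of A+ with T+ was also called for 0 of 7 (0% of all genes, 0 members unadjusted), with -0.02 for Trem2 (-0.42 to 0.38) and 0.28 for Ptpn6 (-0.15 to 0.70).

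**Figure D4:**
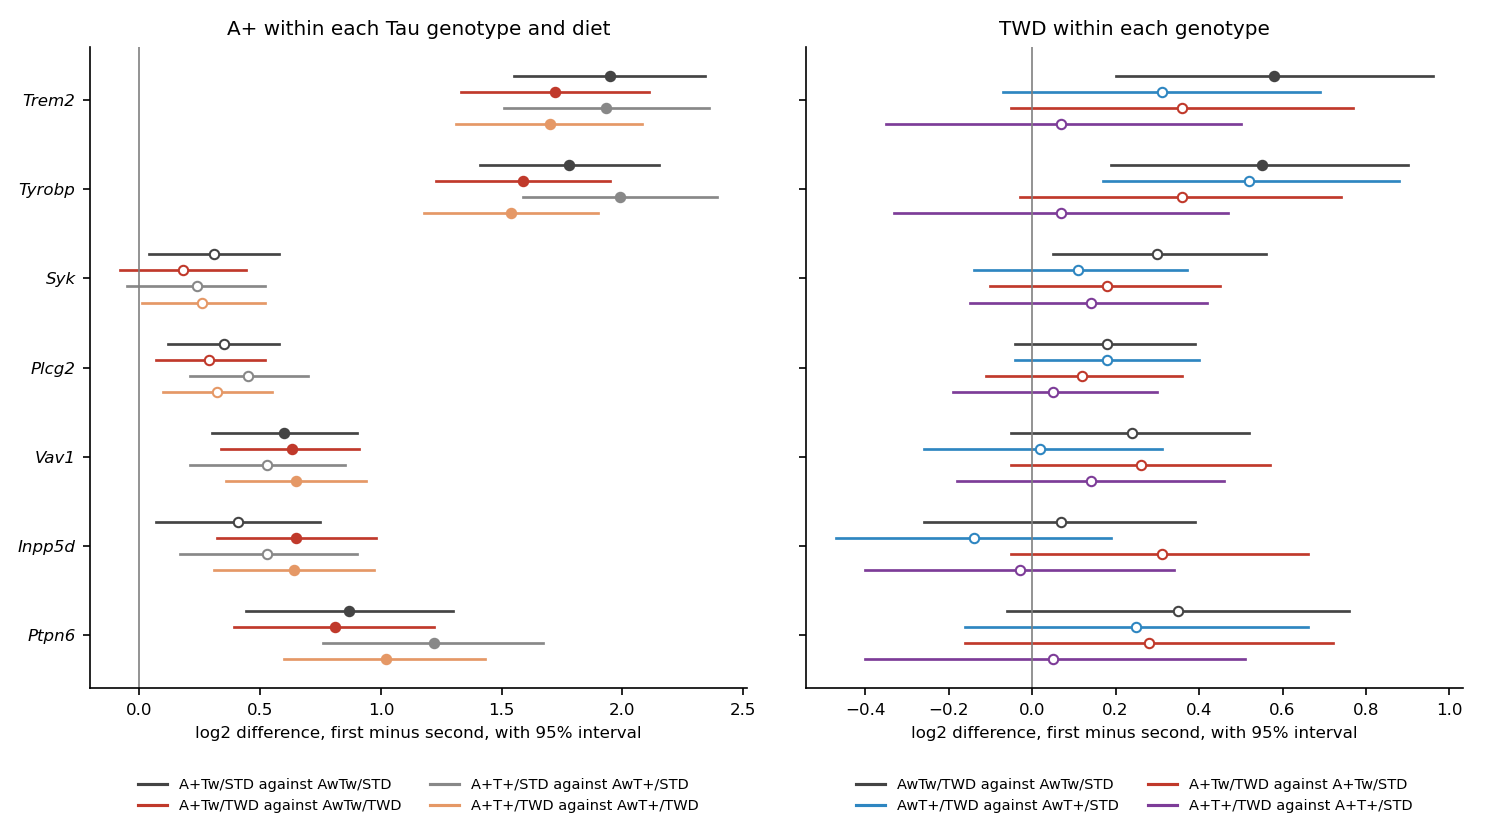
Log2 differences (x axis, with 95% interval) of the 7 genes for A+ within each Tau genotype and diet (left) and for TWD within each genotype (right), with filled circles where the limma adjusted p was under 0.05. The scales of the panels differ, and the Trem2 and Tyrobp differences on the left, from 1.54 to 1.99, exceed every value on the right.

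Tau P301L was not accompanied by a detectable change of the complex. For T+ against Tw over all mice, 0 of 7 members passed (limma, 0 at an unadjusted p under 0.05, 0.0189% of all genes called). The log2 difference was -0.10 for Trem2 (95% interval -0.30 to 0.10), -0.08 for Tyrobp (-0.27 to 0.11), 0.09 for Syk (-0.04 to 0.22), -0.09 for Plcg2 (-0.20 to 0.03), -0.06 for Vav1 (-0.21 to 0.09), 0.02 for Inpp5d (-0.15 to 0.19) and -0.09 for Ptpn6 (-0.31 to 0.12). Over the 7 members the intervals reached from -0.31 for Ptpn6 to 0.22 for Syk. None of the members passed for Tau within a single diet and APP/PS1 genotype either, with 0 members at an unadjusted p under 0.05. The values there went from -0.28 for Ptpn6 in AwT+/TWD against AwTw/TWD to 0.22 for Inpp5d in A+T+/STD against A+Tw/STD, where at most 0.00629% of all genes were called.

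With diet irrespective of genotype, Tyrobp, Trem2 and Syk were higher on TWD. Tyrobp differed by 0.39 ± 0.093 on the log2 scale (SE, 1.31-fold, limma adjusted p = 0.0157), Trem2 by 0.34 ± 0.099 (1.27-fold, adjusted p = 0.0167) and Syk by 0.18 ± 0.064 (1.14-fold, adjusted p = 0.0308). In the same comparison 16% of all genes were called upwards, 13.4% downwards and 29.4% in either direction, against which 3 of 7 is to be read. Ptpn6 (0.24, 95% interval 0.04 to 0.45), Plcg2 (0.14, 0.03 to 0.25) and Vav1 (0.16, 0.01 to 0.31) had adjusted p of 0.0653, 0.0529 and 0.0834. Inpp5d was at 0.05 (-0.13 to 0.22). The median over the members was 0.18, against 0.00 for all genes. The 12 microglial markers went both ways, from -0.47 for Gpr34 (limma adjusted p = 0.0623) to 0.45 for Aif1 (adjusted p = 0.0157). The 14 genes of microglia near plaques ran from -0.22 to 0.20.

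In the mice themselves the diet groups overlapped in each genotype for every member. In wild-type mice Trem2 went from a mean of 7.27 on STD to 7.85 on TWD, and 3 of the TWD mice, all of batch 1, stood at 8.14, 8.18 and 8.58 while the other mouse of that batch had the lowest value of its group, 7.21. The 2 TWD mice of batch 0, at 7.42 and 7.59, lay within or just above the STD range of 7.07 to 7.57. AwTw was the only genotype in which members passed for diet, namely Trem2 (0.58, 95% interval 0.20 to 0.96) and Tyrobp (0.55, 0.19 to 0.90), both with a limma adjusted p of 0.0498, where 6.01% of all genes were called upwards, 3.34% downwards and 9.35% in either direction. The calls were lost, with 0 members passing, when any of 32 of the 45 mice was left out, mice of other genotypes included. In the 3 transgenic genotypes 0 members passed and 0% of all genes were called. At an unadjusted p under 0.05 there was 1 member in AwT+, Tyrobp (0.52, 0.17 to 0.88), and none in the APP/PS1 genotypes. Trem2 was at 0.31 (-0.07 to 0.69) in AwT+, 0.36 (-0.05 to 0.77) in A+Tw and 0.07 (-0.35 to 0.50) in A+T+ mice. No member passed for the interaction of T+ with diet (0 unadjusted, 0% of all genes), with -0.28 for Trem2 (-0.68 to 0.12).

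The batches differed in the size of the diet difference. For Trem2 the log2 difference was 0.12 ± 0.109 (SE) in batch 0 and 0.54 ± 0.148 in batch 1, and for Tyrobp it was 0.24 ± 0.125 and 0.53 ± 0.128. In batch 1 both passed (limma adjusted p = 0.0176 each) and in batch 0 neither did (0.824 and 0.82), a difference between batches that was not tested. Over all genes, 40.9% were called for diet in batch 1 alone, against 2 of 7 members, and 0% in batch 0 alone. Syk was at 0.17 in batch 0 and 0.21 in batch 1, and Ptpn6 at 0.29 and 0.25.

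**Figure D5:**
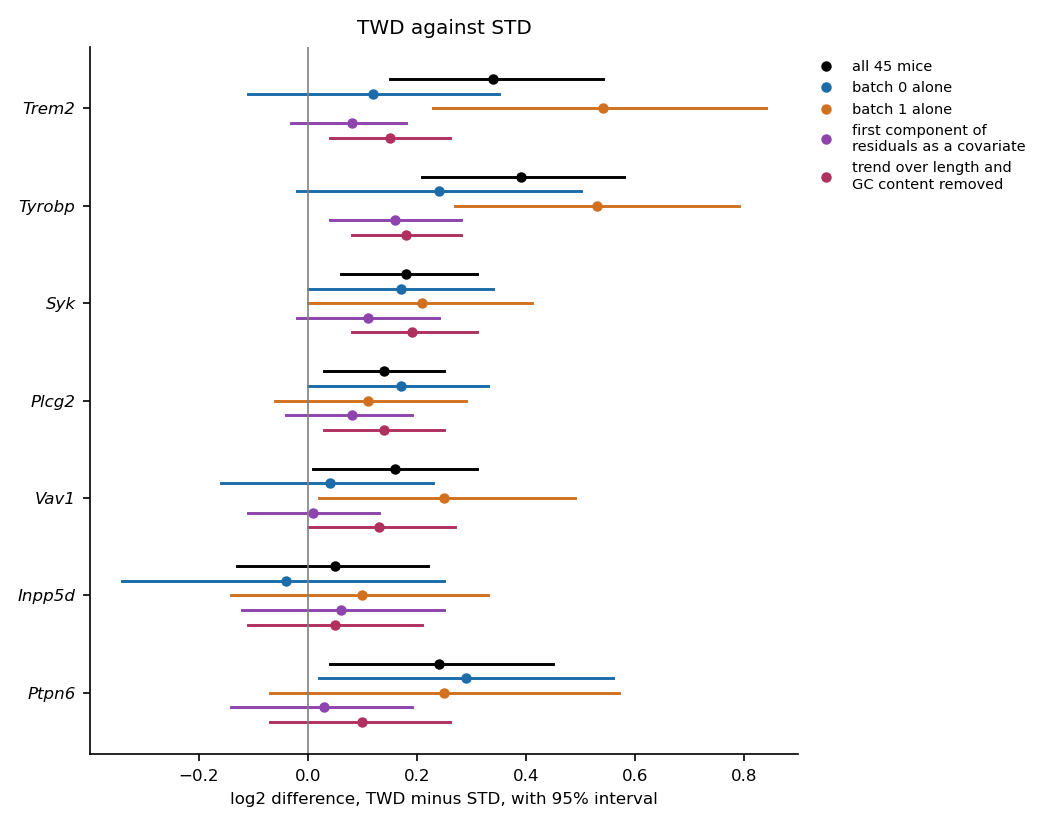
Log2 difference between TWD and STD mice irrespective of genotype (x axis, with 95% interval) for each gene, over all 45 mice, within each batch, with a covariate for the leading component of residual variation, and after the length and GC trend was removed in each mouse. Trem2 moves from 0.34 to 0.08 and 0.15 in the last pair of fits, and Syk from 0.18 to 0.11 and 0.19.

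The diet difference went down with transcript length over the transcriptome. Over all genes the median diet difference was 0.153 on the log2 scale for transcripts under 1000 bases, 0.065 for 1000 to 2000, -0.037 for 2000 to 4000 and -0.144 for those over 4000, and 38.8% of the shortest and 3.06% of the longest class were called higher on TWD. Tyrobp belongs to the shortest class, Trem2 and Ptpn6 to the next, and Syk and Plcg2 to the longest. Syk (0.18) and Plcg2 (0.14) had positive differences, opposite in sign to the median of their class. A cause of the members' diet differences was not tested. After a smooth trend over length and GC content was taken out of each mouse, the diet difference was 0.18 ± 0.049 (SE, limma adjusted p = 0.0219) for Tyrobp, 0.15 ± 0.053 (adjusted p = 0.0522) for Trem2 and 0.19 ± 0.059 (adjusted p = 0.0273) for Syk, and 14.7% of all genes were called. For A+ against Aw, all 7 members passed after the same step (5.61% of all genes in either direction), with 1.73 for Trem2 and 1.63 for Tyrobp.

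The members also varied between mice of a group. The leading component of the residuals, that is of what remained after group and batch means were taken out, held 41.3% of the residual variance. Trem2 followed it with r = 0.90 over the 45 mice, Tyrobp with 0.83, Vav1 with 0.72 and Ptpn6 with 0.70, whereas Plcg2 (0.39), Syk (0.37) and Inpp5d (-0.09) did so less or not. Among all genes, 91.1% had a weaker correlation with the component than Trem2. To use the component as a covariate, each mouse was scored by the component's gene weights on its values with the group means left in, so the score itself differed between diets, with a mean of 0.39 in TWD and -0.45 in STD mice (in units of its SD over mice). With this score as a covariate the diet difference was 0.08 ± 0.050 (SE, limma adjusted p = 0.685) for Trem2 and 0.16 ± 0.059 (adjusted p = 0.583) for Tyrobp, and 0 of 7 members passed, with 0% of all genes called (1 member at an unadjusted p under 0.05, Tyrobp). The A+ difference of Trem2 was 1.70 ± 0.048 in that fit. What the component stands for is not given by the labels, and its part in the diet difference cannot be told apart from diet itself.

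Other genes of the pathway were examined as a list of 46, of which 41 were in the table. For A+ against Aw, 12 of 41 were higher and 0 lower (median log2 difference 0.05), against 3.11% of all genes higher. The receptor Siglech, which also couples to Tyrobp, rose by 0.72 ± 0.069 (SE, limma adjusted p = 1.09e-10). Among the Src family kinases, which phosphorylate the ITAM, 2 of the 4 measured were higher. The scaffold proteins and Tec kinases had 4 of 9 higher, with the smallest adjusted p for Lat2 (0.72, adjusted p = 1.36e-08), an adaptor that assembles Syk substrates. In the PI3K and Akt group 3 of 12 were higher, of which Pik3r5 (0.33), a regulatory subunit of PI3K gamma, had the smallest adjusted p. Rac2, the Rac GTPase of blood cells and a Vav1 target, rose by 0.67 and was 1 of 6 in its group. Ptprc (Cd45), the phosphatase that activates Src kinases, rose by 0.63 and was 1 of 5. Of the inhibitory receptor Cd33 and the sheddases of Trem2, Adam10 and Adam17, none passed, with Cd33 at 0.30 (adjusted p = 0.0658).

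The close relatives of the members did not pass for A+ against Aw, and 0 of 6 were called by limma. As 3.77% of all genes were called in either direction, this count does not set the relatives apart from other genes. The log2 difference was 0.03 for Zap70 (relative of Syk), 0.03 for Plcg1 (Plcg2), 0.07 for Inppl1 (Inpp5d), -0.02 for Ptpn11 (Ptpn6) and 0.16 and -0.15 for Vav2 and Vav3 (Vav1). The interval of Zap70 (-0.14 to 0.20) overlapped that of Syk (0.11 to 0.38). The interval of Plcg1 (-0.06 to 0.12) lay below that of Plcg2 (0.24 to 0.47), and that of Ptpn11 (-0.15 to 0.10) below that of Ptpn6 (0.76 to 1.19). Vav2 had an interval of 0.04 to 0.28, so a small rise was not detectable after adjustment (adjusted p = 0.156).

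For diet, 5 of the 41 pathway genes were higher and 7 lower on TWD, shares near the 16% and 13.4% of all genes. Lower genes included Pik3r1 (-0.44 ± 0.096, SE, limma adjusted p = 0.0157), a regulatory subunit of class IA PI3K, and both sheddases, Adam10 (-0.42, adjusted p = 0.0176) and Adam17 (-0.26, adjusted p = 0.0206). Higher genes included the inhibitory adaptor Dok3 (0.31), Rac2 (0.36) and Siglech (0.17). Among the relatives Zap70 was higher (0.24, adjusted p = 0.0300) and the other 5 did not pass. None of these diet calls was kept in batch 0 alone or with the residual component as a covariate, where 0% of all genes were called. Nor was any kept at an adjusted p of 0.01, where 0.00629% of all genes were called.

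The genes most like Trem2 over all mice, with batch taken out and the groups kept, were Tyrobp (r = 0.99, Spearman rho = 0.98), Cd68 (0.98), Laptm5 (0.98), C1qa (0.97) and C1qc (0.97), which encode microglial lysosomal and complement proteins. These correlations are over 45 mice that form separate A+ and Aw clusters, so they largely record the shared APP/PS1 difference. Trem2 took the first place for Tyrobp, the identifier repeating its values came next, and Cd68 followed. Ptpn6 was most like Laptm5 (0.93), C1qc and C1qa (0.92 each), Vav1 most like Grn (0.91), C1qc (0.90) and Trem2 (0.89), and Plcg2 most like Cd37 (0.84), Olfml3 (0.83) and Laptm5 (0.82). Inpp5d had its closest patterns in App (0.72), Gfap (0.72) and Itgax (0.71), and Syk in Tgfb1, Padi2 and Ppfia4 (0.74 each), so these 2 members had weaker partners than the others. The APP transgene of A+ mice is a mouse/human chimera and reads were quantified on mouse transcripts, so the App value may include transgene reads. Of the 15895 genes ranked for Trem2, Ptpn6 stood at place 43 (r = 0.91), Vav1 at 50 (0.89), Plcg2 at 118 (0.80), Inpp5d at 294 (0.65) and Syk at 374 (0.62).

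With the group means also taken out, the genes nearest to Trem2 were C1qc (0.94), C1qa (0.94), Cox6a1, Nop53 and Ccdc85b (0.93 each), of which the last 3 are not microglial genes. Tyrobp still correlated with Trem2 at 0.91 but stood at place 42, and its own nearest genes were Eif5a (0.93), C1qa (0.92) and Mien1 (0.92). The other members were at 0.71 (Ptpn6), 0.64 (Vav1), 0.44 (Plcg2), 0.35 (Syk) and -0.18 (Inpp5d) with Trem2. Their nearest genes within groups were Cldn5 (0.80), Laptm5 and Sgta (0.78 each) for Ptpn6, Slc25a28 (0.79), Ddx41 and Lemd2 (0.78 each) for Vav1, and Fosb (0.73), Lzts3 (0.71) and Sema4f (0.68) for Syk. For Plcg2 they were Nrg2 (0.64), Pwwp2b (0.61) and ENSMUSG00000110798 (0.61), and for Inpp5d Unc13a (0.65), 2610005L07Rik (0.63) and Pde7b (0.62).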

How the data were processed

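Hippocampal poly(A) RNA of 45 mice was sequenced as single reads in the study. Per its methods and processing notes, the authors trimmed reads with Trimmomatic 0.38, discarded ribosomal and mitochondrial reads with Bowtie2 2.2.3 and quantified mouse transcripts (mm10) with kallisto 0.44.0. The authors then summed counts per gene, kept genes with a mean count above 10, applied the variance-stabilising transformation of DESeq2 1.22.2 and subtracted batch with limma 3.38.3. The deposited values are thus on a log2 scale, and depth per mouse was not known from them. In the deposited table the mean of each gene is equal in both batches, so batch was subtracted without regard to the groups, and batch was kept as a covariate here.

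Symbols, positions and transcript lengths were taken from GENCODE M21 (GRCm38). Tests were run with limma 3.58.1 under R 4.3.3 (1 model holding the 8 groups and batch, empirical Bayes with a mean trend, and for the overall diet difference a model with genotype, diet and batch added together, 2-sided, Benjamini-Hochberg over 15897 genes, threshold 0.05). Likeness, levels and promoters were computed in Python 3.11.15, and plots with matplotlib 3.10.9. In simulated data with the same mice, 87% of 100 genes given a log2 difference of 0.5 between A+ and Aw were recovered and 98% of 100 given 1, and 5.61% of calls were genes given none. The simulated noise was independent between genes, whereas the leading residual component held 41.3% of the residual variance of the real values. These rates may therefore not hold for the real values.

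The members and all gene lists were chosen with earlier results of these data known. Named are the members, the gene with the smallest adjusted p in each of 7 pathway roles for APP/PS1 and for diet, the relatives of members, and the 5 (Trem2) or 3 genes with the highest Pearson r. The rule allowed 12 pathway genes and relatives, but its parts come to 17, which are given except for some not reported here. Names given of markers beyond this (Gfap, Gpr34 and Aif1) and of the sheddase Adam17 were chosen after their values were seen.

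Alternatives tried were leaving out the batch covariate, either batch by itself, covariates (the letters before the mouse number, a microglial marker score, the leading residual component), quantile normalization, genes above the 25th percentile of the mean value, no mean trend, only the groups compared, identical genes counted once, other thresholds and each mouse left out. Removing the trend over length and GC content was added after the data were seen.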

Additional observations from a re-analysis of the deposited data

Results flagged for a closer look

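In the 56 combinations of a member and a group, 7 had a mouse whose gap to its nearest neighbour took an unusually large part of the group's range (Dixon's 95% limit), where chance flags about 1 in 20 groups. Of the 7, 4 were for Syk. AwT+/STD replicate 2 had the highest value of its group for Syk, 7.20, with the next at 6.85, and AwT+/TWD replicate 4 had the lowest, 6.40, with the next at 6.95. A+Tw/TWD replicate 1 was highest for Syk at 7.36 above 7.15, and A+T+/STD replicate 3 lowest at 6.90 below 7.17. For Inpp5d, A+T+/STD replicate 4 had 8.10 while the other mice of that group all had 8.53. For Ptpn6, AwTw/STD replicate 6 had 7.40 against a next value of 6.95, and A+Tw/TWD replicate 5 had 8.28 against 8.02. The flagged mice were 7 different animals, of which 3 were in batch 0 and 4 in batch 1. Left out one at a time, no mouse changed the count of 7 members higher in A+ than in Aw.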

How the results depend on the processing

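All 7 members stayed higher in A+ than in Aw mice, past the threshold, with each mouse left out, and Trem2 ran from 1.77 to 1.86 and Syk from 0.22 to 0.27 on the log2 scale. The count was 4 in batch 0 alone (1.16% of all genes in either direction) and 5 in batch 1 alone (1.81%). It was 6 with quantile normalization (3.56%) or at an adjusted p of 0.01 (2.5%), and 3 with the microglial marker score as a covariate (7.44%). For A+Tw/STD against AwTw/STD, 4 members became 2 with only the groups compared, quantile normalization, an adjusted p of 0.01, batch 1 alone or the microglial score, and 0 in batch 0, which has 1 A+Tw/STD mouse. It was 2 to 4 with a mouse left out (2 without AwTw/STD replicates 1 or 3 or A+Tw/STD replicates 2 or 5). The 5 of A+Tw/TWD against AwTw/TWD became 3 without the batch covariate, with the microglial score or with genes above the 25th percentile, 2 in either batch, at 0.01, with quantile normalization or with only the groups compared, and 2 to 5 with a mouse left out (2 without A+Tw/TWD replicate 2 or AwTw/TWD replicate 4, and 3 without A+Tw/TWD replicates 1 or 4 or AwTw/TWD replicates 2, 5 or 6). The 4 of A+T+/STD against AwTw/STD became 2 in either batch and 2 to 5 with a mouse left out (2 without A+T+/STD replicate 1). The 2 of A+T+/TWD against AwTw/TWD became 4 with the residual component as a covariate or the length and GC trend removed. The 5 of A+T+/TWD against AwT+/TWD became 2 in either batch or with only the groups compared, 3 at 0.01, with quantile normalization or with the microglial score, and 3 to 5 with a mouse left out (3 without A+T+/TWD replicate 1). The cause of these changes was not tested.

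For diet irrespective of genotype, 3 members (29.4% of all genes in either direction) became 0 in batch 0 or with the residual component (0% each) or at 0.01 (0.00629%), 5 with quantile normalization (30.4%) and 6 at 0.1 (41.9%). With a mouse left out they were 2 to 6 (6 without AwTw/TWD replicate 5, and 5 without A+Tw/STD replicates 2 or 5, A+T+/STD replicate 1 or AwT+/TWD replicate 4). The call of Syk was lost without AwTw/TWD replicates 1 or 2, AwTw/STD replicate 4, A+T+/TWD replicate 1 or AwT+/TWD replicate 3. The 2 members called for diet in AwTw mice, at an adjusted p just under the threshold, became 0 in batch 0, with the residual component, the label letters, no mean trend, only the groups compared, quantile normalization, the length and GC trend removed or at 0.01. They were 0 to 4 with a mouse left out, with 0 in 32 of 45 cases and 4 without AwTw/TWD replicate 5. Directions turned only for values near 0. Inpp5d for diet was -0.04 in batch 0, Vav1 for Tau was 0.00 in batch 0, and Inpp5d for Tau was -0.04 in batch 0, -0.01 with the length and GC trend removed and -0.00 to 0.06 with a mouse left out. Each of the 45 samples was a different mouse, so no paired analysis was made. The lists of most similar genes depended on the measure, and with the group means taken out 0 of the 3 genes named for Tyrobp were the nearest by Spearman rho. Depth is unknown, and values of low genes are compressed by the transformation.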
